A study of Mus musculus with 4 samples.

Results

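The 30 genes described here are the tumour suppressor gene Trp53, which encodes p53, and 29 genes of its pathway, most of them activated by p53 when cells are stressed. They were chosen by name from the known pathway, and each of the 30 matched a single row of the 47885 rows in the deposited count table. Of these, 29 passed the filter on low counts, which kept 15563 genes in all, and Fas did not. Gene expression was compared between 2 embryos classed as Mettl14-/- (KO) and 2 classed as Mettl14+/+ (WT), all of the C57BL/6 background and collected at embryonic day 5.5, shortly after implantation. At this stage the mouse embryo is a small cylinder in which the epiblast and the extraembryonic ectoderm are wrapped in visceral endoderm. METTL14 is the partner of METTL3 in the enzyme that places N6-methyladenosine on RNA, and the study asked what its loss does at a stage when mutants still looked like their littermates. Each library came from 1 whole embryo, amplified with a Smart-Seq v4 kit. The genotype was read afterwards from a qPCR for Mettl14 on the same amplified cDNA, so the WT embryos are those in which Mettl14 mRNA was present, and a heterozygous embryo may not be told from a homozygous control in this way.

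p53 is a transcription factor that is made all the time and quickly destroyed. DNA damage, disturbed ribosome assembly and other stresses stabilise the protein, so the amount of its mRNA is a poor guide to its activity, and the activity is usually read from its target genes. The targets hold back p53 itself (Mdm2, Ppm1d), stop the cell cycle (Cdkn1a), trigger apoptosis (Bax, Bbc3, Pmaip1), adjust metabolism (Sesn1, Sesn2, Tigar) and repair DNA (Xpc, Ddb2). In the mouse epiblast around implantation, p53 takes part in the removal of less fit cells. Many of these genes also respond to other transcription factors and differ between cell types, so their levels are not a measure of p53 alone.

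p53 binds DNA as a tetramer at pairs of a 10-base element, the p53 decamer. Promoter windows from RefSeq on GRCm38.p6, reaching from 250 bases before to 50 bases after a gene's start, covered 22 of the 30 genes in 30 windows. A pair of p53 decamers with no base between them, with the C and G of each core intact and at most 1 mismatch over the pair, was found in windows of 3 genes, Cdkn1a, Ccng1 and Gtse1, and in 0.067% of all 32851 windows. The decamer reads the same on both strands. With up to 13 bases between the decamers and at most 2 mismatches, Bax and Sesn1 matched as well, against 4.09% of all windows. A match is a description of the letters in these windows, not evidence of binding, and the form of the search was set after the windows were read. The 3 windows with an adjacent pair are shown, with the decamer pair in capitals, because the expression of these 3 genes is set side by side below.
Cdkn1a (chr17:29090729-29091028, + strand): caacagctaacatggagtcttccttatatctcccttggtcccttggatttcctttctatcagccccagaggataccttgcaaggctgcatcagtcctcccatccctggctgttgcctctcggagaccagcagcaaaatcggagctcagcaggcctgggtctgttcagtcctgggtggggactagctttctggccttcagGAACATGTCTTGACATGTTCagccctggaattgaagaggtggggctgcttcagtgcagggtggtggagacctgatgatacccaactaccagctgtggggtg
Ccng1 (chr11:40755237-40755536, - strand): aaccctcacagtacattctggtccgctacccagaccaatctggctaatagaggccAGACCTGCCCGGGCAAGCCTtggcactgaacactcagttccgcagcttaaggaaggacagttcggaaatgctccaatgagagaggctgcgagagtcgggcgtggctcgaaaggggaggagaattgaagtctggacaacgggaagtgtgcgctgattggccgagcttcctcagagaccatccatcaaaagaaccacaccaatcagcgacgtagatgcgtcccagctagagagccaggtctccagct
Gtse1 (chr15:85859696-85859995, + strand): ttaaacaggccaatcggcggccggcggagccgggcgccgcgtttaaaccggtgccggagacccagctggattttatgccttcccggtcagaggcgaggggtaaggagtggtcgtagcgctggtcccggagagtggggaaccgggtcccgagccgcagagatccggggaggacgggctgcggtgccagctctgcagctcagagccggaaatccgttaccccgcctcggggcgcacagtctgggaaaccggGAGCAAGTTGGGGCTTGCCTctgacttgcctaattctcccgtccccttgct
The Cdkn1a window belongs to the upstream of 2 annotated starts, and the pair begins 51 bases before that start; the deposited counts are per gene and do not separate the starts. In Ccng1 the pair begins 195 bases before the start, and in Gtse1 it begins 1 base before the downstream of 2 annotated starts and runs past it.

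Total counts ran from 20248636 to 28698541 in KO and from 16108062 to 20121289 in WT, and a single count equalled 0.0359 to 0.0472 CPM (the count scaled to library size with the trimmed mean of M values, TMM) in KO and 0.0534 to 0.059 CPM in WT. Mettl14 stood at 4.63 and 8.04 CPM in KO replicates 1 and 2 and at 34.0 and 31.6 CPM in WT replicates 1 and 2, as the classing by the same mRNA fixes. KO replicate 2 stood apart from the other embryos on the first principal component, at 109 against -77.8 to -5.49, so values are given for each embryo. It had the highest total counts but the fewest genes with a count, 18346 against 19603 to 21488 in the other embryos. It was also the lowest of the 4 embryos for 33.6% of all genes tested. The part of this in the values below was not tested. Tissue markers were not even between the groups. The 8 visceral endoderm markers summed to 253 and 329 CPM in KO and to 695 and 1846 CPM in WT, and the 7 ectoplacental cone and giant cell markers to 1833 and 1039 CPM in KO and to 374 and 575 CPM in WT, with the defining markers Tpbpa and Prl2c2 at 0 in all 4 embryos. The 7 epiblast markers summed to 1243 and 2071 CPM in KO and to 1259 and 1584 CPM in WT, and the 6 extraembryonic ectoderm markers to 985 and 638 CPM in KO and to 596 and 681 CPM in WT. Utf1 made up most of each epiblast sum, at 853 and 1496 CPM in KO and 796 and 960 CPM in WT. Among the epiblast markers, Otx2 was lower and Nanog and Sox2 were higher in both KO embryos than in both WT embryos. The other 4 overlapped. Of all genes tested, 18.8% were lower and 19.4% higher in this way. The 6 parietal endoderm markers summed to 373 and 464 CPM in KO and to 265 and 898 CPM in WT. The 7 markers of maternal decidua summed to 8.97 and 17.2 CPM in KO and to 17.1 and 31.5 CPM in WT, most of the KO sum from Cryab. Without Cryab, left out after its values were seen, the other 6 summed to 2.55 and 1.33 CPM in KO and to 15.2 and 23.3 CPM in WT. Of the full list 5 markers were tested, Cryab among them, and DESeq2 called 3 lower in KO, where it called 0.643% of all genes lower. Dcn had 1.32 and 0.718 CPM in KO and 8.49 and 15.1 CPM in WT. The 7 markers of blood and immune cells summed to at most 4.09 CPM in KO and 2.67 CPM in WT, with Hbb-bs, Hbb-bt and Lyz2 at 0 throughout. The part of these differences in the values below was not tested, and in whole embryos fewer cells of a type and less RNA per cell cannot be told apart.

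None of the 29 genes tested passed the threshold for a difference between KO and WT embryos, and with all 4 embryos more of them had a fold change above than below 0. The fitted log2 fold change was above 0 for 20 of the 29, and for 47.7% of all genes tested. Without KO replicate 2 it was above 0 for 15 of the 29 and for 48.3% of all genes. Both KO embryos lay above both WT embryos for 11 of the 29 genes, against 19.4% of all genes tested, and both lay below for 2 of them, Pmaip1 and Ddb2, against 18.8%. The 11 were Mdm2, Ppm1d, Cdkn1a, Btg2, Plk3, Phlda3, Tnfrsf10b, Sesn2, Tigar, Ddit4l and Xpc. The median log2 fold change of KO over WT was 0.20 over the 29 genes and -0.03 over all genes tested. The size of this median was not stable: it ran from 0.31 to 0.45 with any 1 of the 4 embryos left out (0.38 without WT replicate 1, 0.34 without WT replicate 2, 0.45 without KO replicate 1 and 0.31 without KO replicate 2), and stood at 0.35 with limma-voom and 0.34 with the replicate block. By edgeR's quasi-likelihood test with Benjamini-Hochberg adjustment over all 15563 genes, 0% of genes tested and 0 of the 29 passed at 0.05, and the smallest adjusted p among the 29 was 0.308, for Pmaip1. At an unadjusted edgeR p under 0.05 there were 6 genes with higher values in KO, against 4.74% of all genes tested, and 1 with a lower value, against 3.08%. DESeq2 called 1 of the genes, Pmaip1, as lower, where it called 0.643% of all genes lower and 0.993% higher, and limma-voom called 0.

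**Figure D1:**
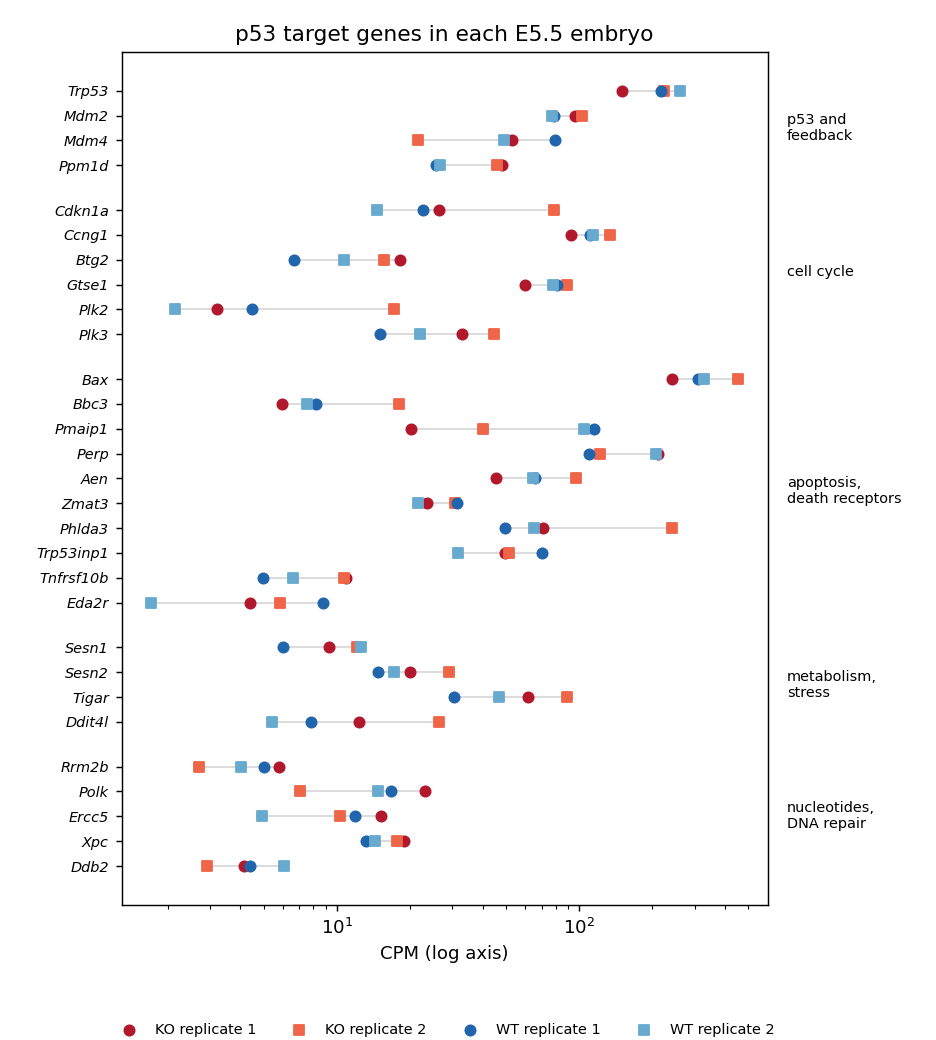
CPM (log axis) of the 29 tested genes in each embryo, by role; circles are replicate 1 and squares replicate 2 of KO (red) and WT (blue), and a grey line spans the 4 embryos. Pmaip1 is the gene whose KO embryos, at 20.3 and 40.3 CPM, lie farthest below the WT embryos, and KO replicate 2 stands far to the right for Cdkn1a, Phlda3 and Plk2; Fas, at 0 in WT, is not drawn.

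p53 itself and the genes that restrain it had values in both directions. Trp53 (ENSMUSG00000059552, chromosome 11, 69580359 to 69591873 on mm10) had 150 and 224 CPM in the KO embryos, against 217 and 260 CPM in the WT embryos. KO replicate 1 was the lowest and the groups overlapped (log2 fold change -0.35, SE 0.32, n = 2 per group, edgeR adjusted p = 0.880). Reads of the processed pseudogene Trp53-ps may be shared with Trp53. Mdm2, the ubiquitin ligase that marks p53 for destruction and is itself a p53 target, had 95.8 and 102 CPM in KO and 78.8 and 77.2 CPM in WT. Its replicates lay close together and the groups did not overlap, at a log2 fold change of 0.35 (SE 0.31, edgeR adjusted p = 0.877). Ppm1d, the phosphatase Wip1 that switches off p53 and its activating kinases, had 48.0 and 45.8 CPM in KO and 25.6 and 26.8 CPM in WT. The embryos of each group lay close together and the groups were apart, with means of 46.9 ± 1.55 CPM in KO and 26.2 ± 0.797 CPM in WT (SD, n = 2 each; log2 fold change 0.84, SE 0.35, edgeR adjusted p = 0.618). Mdm4, the partner of Mdm2 that blocks the activation domain of p53, had 52.9 and 21.5 CPM in KO and 79.2 and 48.9 CPM in WT. KO replicate 2 was the lowest while KO replicate 1 lay between the WT embryos (log2 fold change -0.78, SE 0.49, edgeR adjusted p = 0.785), and a processed pseudogene, Mdm4-ps, may share reads.

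Of the 6 genes that act on the cell cycle, 5 had fold changes above 0, beside 47.7% of all genes tested. Among the 5 was Ccng1, at 0.0033 (SE 0.33), whose sign held in 7 of 11 alternative settings. The median log2 fold change of the 6 genes was 1.02. Cdkn1a encodes p21, the inhibitor of cyclin-dependent kinases through which p53 arrests the cycle (ENSMUSG00000023067, chromosome 17, 29090976 to 29100727 on mm10). It had 26.5 and 78.7 CPM in the KO embryos, against 22.7 and 14.6 CPM in the WT embryos. Both KO embryos were above the WT embryos, but KO replicate 1 by only 3.79 CPM over the nearer WT embryo, and the high mean rested on KO replicate 2 (log2 fold change 1.50, SE 0.55, edgeR adjusted p = 0.553, DESeq2 adjusted p = 0.162). Exons of Cdkn1a overlap those of an unclassified gene on the opposite strand over 273 bases, and reads of the 2 strands cannot be told apart in these libraries.

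The other genes with an adjacent decamer pair had smaller fold changes than Cdkn1a, and the difference between the genes was not tested. Ccng1, cyclin G1, which recruits a phosphatase to Mdm2, had 92.2 and 134 CPM in KO and 111 and 114 CPM in WT, with the KO embryos on either side of the WT embryos (log2 fold change 0.00, SE 0.33). Gtse1, a microtubule-bound protein of G2 that moves p53 out of the nucleus, had 59.7 and 89.2 CPM in KO and 81.2 and 77.8 CPM in WT, again with the KO embryos on either side (-0.09, SE 0.35). In these 2 genes KO replicate 2 was the highest embryo, as it was for Cdkn1a, and KO replicate 1 the lowest. The WT embryos differed by at most 3.49 CPM in either gene.

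Among the remaining cell cycle genes, Btg2, an antiproliferative cofactor of mRNA deadenylation, had 18.2 and 15.7 CPM in KO and 6.66 and 10.7 CPM in WT. The groups did not overlap (log2 fold change 0.96, SE 0.46, edgeR adjusted p = 0.686). Plk3, a polo-like kinase of the stress response, had 33.0 and 44.6 CPM in KO and 15.0 and 22.0 CPM in WT, and the groups did not overlap here either (1.07, SE 0.40, edgeR adjusted p = 0.558). Its exons overlap Tctex1d4 on the opposite strand over 84 bases. Plk2, a polo-like kinase of the centriole cycle, had 3.21 and 17.2 CPM in KO and 4.48 and 2.14 CPM in WT. KO replicate 2 was far above the other embryos and KO replicate 1 lay between the WT embryos (1.62, SE 0.82, edgeR adjusted p = 0.719).

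The genes of apoptosis and of the death receptors held the lowest fold change of the 29, that of Pmaip1, and a median log2 fold change of 0.10 over the 10 tested. Pmaip1 encodes Noxa, a BH3-only protein that neutralises the survival factor MCL1 (ENSMUSG00000024521, chromosome 18, 66458533 to 66465565 on mm10). It had 20.3 and 40.3 CPM in the KO embryos, against 115 and 104 CPM in the WT embryos. Both KO embryos were far below both WT embryos, with KO replicate 1 the lower, while the WT embryos differed little from each other. The means were 30.3 ± 14.1 CPM in KO and 110 ± 7.53 CPM in WT (SD, n = 2 each). The log2 fold change was -1.85 (SE 0.42; edgeR adjusted p = 0.308, DESeq2 adjusted p = 0.0048). Pmaip1 also passed in edgeR with no low-count filter (adjusted p = 0.0019), where 0.398% of all genes were called lower and 0.619% higher, Phlda3 among the higher ones. Without KO replicate 1 it stood at -1.36 (adjusted p = 0.190), and without KO replicate 2 at -2.42 (adjusted p = 0.0549).

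Phlda3, which blocks AKT at the membrane, had the highest fold change among the 10 tested genes of this role. It had 71.2 and 241 CPM in the KO embryos, against 49.5 and 65.3 CPM in the WT embryos. The groups did not overlap, but KO replicate 1 stood close to WT replicate 2 and KO replicate 2 far above (log2 fold change 1.45, SE 0.54, edgeR adjusted p = 0.558). Tnfrsf10b, the mouse death receptor for TRAIL, had 10.9 and 10.7 CPM in KO and 4.95 and 6.57 CPM in WT, with the KO embryos almost equal (0.91, SE 0.48, edgeR adjusted p = 0.739). Fas, the receptor for the FAS ligand, had 7 and 11 counts in the KO embryos and 0 in both WT embryos. Against a floor of 3 counts over the WT group, the pooled KO value of 0.367 CPM was 4.36-fold higher. The floor takes in the counting error of the WT group, but not that of the 18 pooled KO counts or of amplification. The ratio is therefore not a lower limit. Fas was left out of the main test because of its low counts. DESeq2 fitted it at a log2 fold change of 5.14 (SE 3.34) and did not call it. Fas was not called by edgeR with no low-count filter either.

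Several apoptosis genes had KO embryos on opposite sides of the WT embryos. Bax, which opens the outer mitochondrial membrane, had 243 and 453 CPM in KO and 310 and 329 CPM in WT. Bbc3, which encodes the BH3-only protein PUMA, had 5.95 and 18.0 CPM in KO and 8.20 and 7.54 CPM in WT, and Aen, a nuclease that fragments DNA during apoptosis, had 45.2 and 97.2 CPM in KO and 65.7 and 64.7 CPM in WT. In each of these 3 genes KO replicate 1 was the lowest embryo, KO replicate 2 the highest and the WT embryos nearly equal. Their log2 fold changes were 0.12 (SE 0.35) for Bax, 0.61 (SE 0.59) for Bbc3 and 0.13 (SE 0.42) for Aen, none past the threshold. Per kilobase of exon, Bax had the highest level of the 30 genes in every embryo, with 154 and 288 CPM per kilobase in KO and 197 and 209 in WT. Bax shares 192 of its 1576 exon bases with the protein-coding gene Gm45808 on the same strand, which was not analysed here.

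The other genes of this role differed by less than their SE. Perp, a desmosome and tetraspan protein, had 213 and 122 CPM in KO and 110 and 209 CPM in WT. Zmat3, an RNA-binding zinc finger protein that affects splicing, had 23.5 and 30.6 CPM in KO and 31.3 and 21.6 CPM in WT. Trp53inp1, a nuclear protein of the stress response and of autophagy, had 49.6 and 51.2 CPM in KO and 70.6 and 31.7 CPM in WT. For these genes the WT embryos were as far apart as, or farther apart than, the KO embryos. Eda2r, the X-linked receptor of ectodysplasin A2, had 4.39 and 5.85 CPM in KO and 8.73 and 1.71 CPM in WT, so that the WT embryos bracketed both KO embryos. The log2 fold changes were 0.07 (SE 0.42) for Perp, 0.03 (SE 0.40) for Zmat3, -0.02 (SE 0.43) for Trp53inp1 and -0.02 (SE 0.78) for Eda2r.

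All 4 genes of metabolism and stress had fold changes above 0, as did 47.7% of all genes tested. The median log2 fold change of the 4 was 0.79. For 3 of them both KO embryos lay above both WT embryos, as for 19.4% of all genes tested. Ddit4l, an inhibitor of mTORC1 related to REDD1, had 12.4 and 26.5 CPM in the KO embryos, against 7.84 and 5.40 CPM in the WT embryos. Both KO embryos were above both WT embryos, KO replicate 2 by more (log2 fold change 1.55, SE 0.53, edgeR adjusted p = 0.524). Tigar, a phosphatase that lowers fructose-2,6-bisphosphate and so slows glycolysis, had 61.4 and 89.0 CPM in KO and 30.5 and 46.7 CPM in WT (0.96, SE 0.39, edgeR adjusted p = 0.592). Exons of Tigar overlap the antisense gene Platr31 over 122 bases. Sesn2, a leucine sensor upstream of mTORC1, had 20.0 and 29.0 CPM in KO and 14.7 and 17.2 CPM in WT (0.62, SE 0.41, edgeR adjusted p = 0.802). Its paralog Sesn1 had 9.25 and 12.1 CPM in KO and 6.01 and 12.6 CPM in WT, and overlapped (0.20, SE 0.52). The sign of the Sesn1 fold change held in 9 of 11 alternative settings.

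Genes of nucleotide supply and DNA repair had a median log2 fold change of -0.07 over 5 genes. Xpc, which recognises distorted DNA in nucleotide excision repair, had 18.9 and 17.8 CPM in KO and 13.2 and 14.3 CPM in WT, without overlap (0.42, SE 0.40, edgeR adjusted p = 0.893). Ddb2, which hands ultraviolet damage to Xpc, had 4.16 and 2.91 CPM in KO and 4.36 and 6.04 CPM in WT, with both KO embryos lower (-0.56, SE 0.60, edgeR adjusted p = 0.903). Ddb2 shares 652 of its 2736 exon bases with Acp2 on the opposite strand, so its counts are uncertain. Polk, a DNA polymerase that bypasses lesions, had 23.1 and 7.03 CPM in KO and 16.7 and 14.8 CPM in WT, and Rrm2b, the p53-inducible subunit of ribonucleotide reductase, had 5.76 and 2.69 CPM in KO and 5.01 and 4.01 CPM in WT. In both, KO replicate 1 was the highest embryo and KO replicate 2 the lowest, the opposite of the order in Bax, Bbc3 and Aen. Rrm2b overlaps an antisense gene over 734 bases. Ercc5, the nuclease XPG, had 15.2 and 10.3 CPM in KO and 11.9 and 4.92 CPM in WT. The fold changes of Polk, Rrm2b and Ercc5 were -0.07 (SE 0.58), -0.10 (SE 0.63) and 0.60 (SE 0.55).

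**Figure D2:**
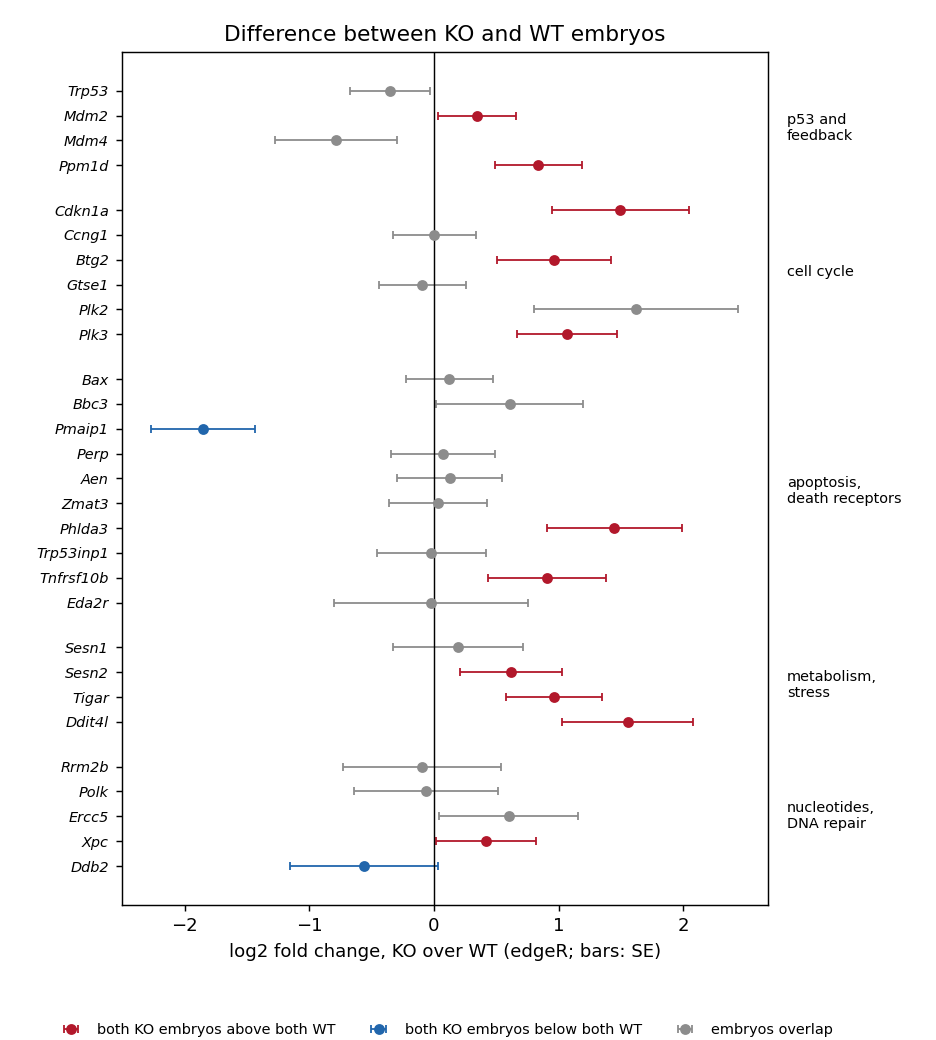
Log2 fold change of KO over WT for each tested gene, with bars of 1 SE from edgeR (n = 2 embryos per group), by role. Red marks the 11 genes with both KO embryos above both WT embryos, blue the 2 with both below, and grey the 16 whose embryos overlap; no gene passed the adjusted threshold.

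The 2 KO embryos differed from each other in how many of these genes lay more than 1 log2 unit above the WT mean. Counted at any size, 22 of the 29 genes lay above the WT mean in KO replicate 2 and 19 in KO replicate 1. Over all 15563 genes tested, 7380 did in KO replicate 2 and 8111 in KO replicate 1. The WT mean here is a mean of log2 CPM, a different measure from the edgeR fit. By that fit without KO replicate 2, 15 of the 29 were above 0. For KO replicate 1, Plk2, Sesn1, Trp53inp1 and Eda2r were above 0 by the WT mean and below 0 by the fit. Set against the mean log2 CPM of the WT embryos, KO replicate 2 was higher by more than 1 log2 unit for 7 of the 29 genes, where 13.8% of all genes tested were, and KO replicate 1 for 1 gene, where 11.8% were. The 7 were Plk2, Cdkn1a, Phlda3, Ddit4l, Plk3, Tigar and Bbc3, and the gene in KO replicate 1 was Btg2. Lower by more than 1 log2 unit were 3 genes in KO replicate 2 (Mdm4, Pmaip1 and Polk), where 18.4% of all genes tested were, and Pmaip1 in KO replicate 1, where 8.87% were. The median difference from the WT mean was 0.47 in KO replicate 2 and 0.30 in KO replicate 1 over the 29 genes. Over all genes tested it was -0.05 in KO replicate 2 and 0.04 in KO replicate 1. These are values of single embryos with no replicate check.

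KO replicate 2 had the highest value of the 4 embryos for 13 of the 29 genes, where it was the highest for 26.5% of all genes tested. KO replicate 1 was the highest for 8, against 23% of all genes tested, WT replicate 1 for 5, against 27.1%, and WT replicate 2 for 3, against 23.4%. By role, the median difference from the WT mean in the cell cycle genes was 1.09 in KO replicate 2 and 0.29 in KO replicate 1. In apoptosis and death receptor genes it was 0.54 in KO replicate 2 and -0.04 in KO replicate 1, and in metabolism and stress genes 1.05 in KO replicate 2 and 0.51 in KO replicate 1. For nucleotide supply and DNA repair the order turned, at -0.72 in KO replicate 2 and 0.46 in KO replicate 1. The signed difference of WT replicate 1 from WT replicate 2 had a median of 0.02 over the 29 genes, where higher and lower genes cancel. The absolute difference between the WT embryos had a median of 0.40 log2 units over the 29 genes and 0.52 over all genes tested. It was more than 1 log2 unit for 5 of the 29. WT replicate 1 was the higher by that much for 4 of the 5, against 14% of all genes tested, and the lower for 1, against 9.59%.

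**Figure D3:**
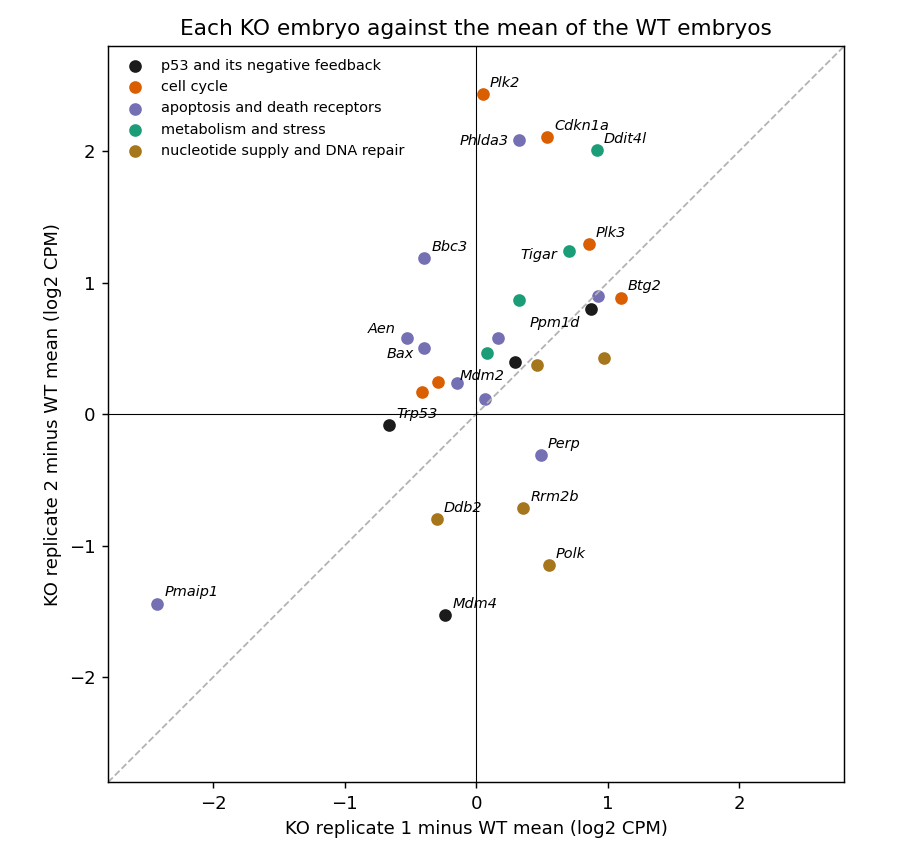
Difference of each KO embryo from the mean of the WT embryos in log2 CPM, KO replicate 1 across and KO replicate 2 up; each point is 1 of the 29 genes, coloured by role, and the dashed line marks equal differences. Plk2, Cdkn1a, Phlda3 and Ddit4l lie above 2 in KO replicate 2 and below 1 in KO replicate 1, Ppm1d and Btg2 lie near the line, and Pmaip1 is negative in both.

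Which genes passed the threshold changed with the embryos in the fit, and also with the test and the low-count filter, as given above for Pmaip1 and Phlda3. With KO replicate 1 left out, edgeR called 4 of the 29 genes higher in the remaining KO embryo, where it called 0.792% of all genes higher, and 0 lower, where it called 1.25%. The 4 were Phlda3 (log2 fold change 2.15, adjusted p = 0.0194), Cdkn1a (2.16, adjusted p = 0.0240), Plk2 (2.46, adjusted p = 0.0380) and Ddit4l (2.08, adjusted p = 0.0431). In that fit the lone KO embryo is assumed to vary as the WT embryos do. With KO replicate 2 left out instead, the same genes stood at 0.32, 0.52, -0.03 and 0.91, and 0 of the 29 passed, where 0.351% of all genes were called higher and 0.0951% lower. Leaving out a WT embryo called 0 of the 29, where 0.102% of all genes were higher and 0.157% lower without WT replicate 1, and 0.0818% and 0.00584% without WT replicate 2. With the replicate number as a block 0 of the 29 passed as well, where 0.334% of all genes were higher and 0.122% lower. Ppm1d, Mdm2 and Xpc moved little, between 0.82 and 0.89, 0.31 and 0.47, and 0.37 and 0.49 over all 11 alternative settings. They did not pass the threshold in any of these settings.

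**Figure D4:**
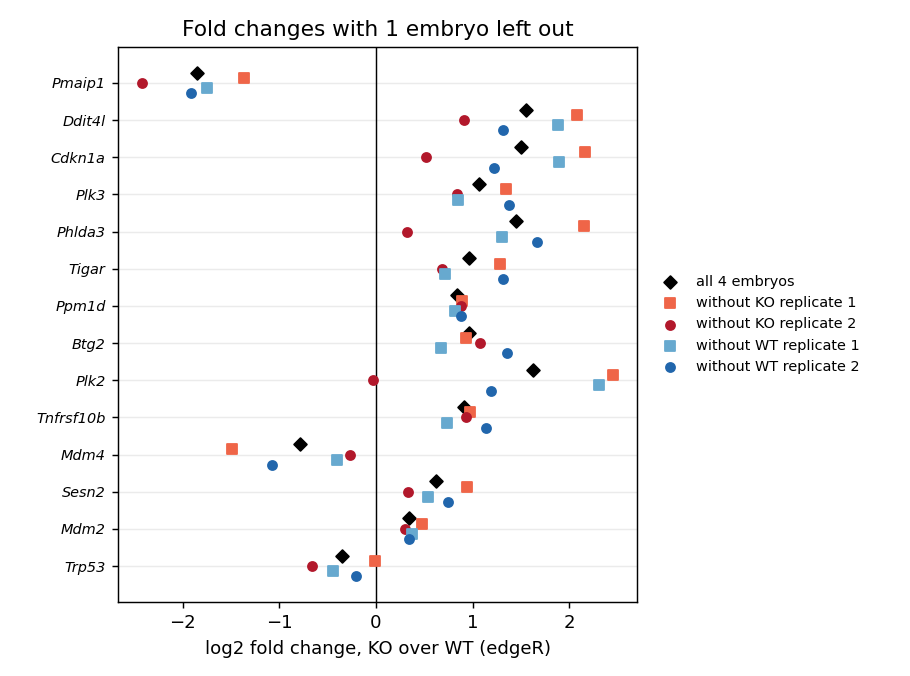
Log2 fold change of KO over WT by edgeR for the 14 genes with the smallest p, with all 4 embryos (diamonds) and with each embryo left out. Plk2 moves from 2.46 without KO replicate 1 to -0.03 without KO replicate 2, while Ppm1d stays between 0.82 and 0.89.

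Other genes of the pathway were read from 2 further lists. Of 63 other p53 targets found in the table, 60 were tested, 0 passed edgeR's threshold in either direction and 38 had a fold change above 0, with a median of 0.18. Both KO embryos lay above both WT embryos for 19 of the 60 and below for 8, beside the 19.4% and 18.8% of all genes tested. At an unadjusted edgeR p under 0.05 there were 8 with higher and 2 with lower values in KO, beside the 4.74% and 3.08% of all genes tested. The 5 with the smallest p were all among the higher ones. The next, Polh, a DNA polymerase that copies past ultraviolet damage, had lower values, at 0.661 and 0.610 CPM in KO and 3.66 and 3.90 CPM in WT (log2 fold change -2.56, SE 0.79), and was chosen for mention after its values were seen. Sfn, 14-3-3 sigma, an epithelial protein that holds back mitotic entry, had 646 and 703 CPM in the KO embryos, against 85.9 and 180 CPM in the WT embryos. Its groups were far apart in both KO embryos (log2 fold change 2.34, SE 0.39, edgeR adjusted p = 0.260, DESeq2 adjusted p = 2.35e-05).

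Dyrk3, a kinase that dissolves stress granules, had 157 and 252 CPM in KO and 45.3 and 81.3 CPM in WT (1.69, SE 0.41). Ninj1, which ruptures the plasma membrane of dying cells, had 137 and 203 CPM in KO and 37.1 and 79.1 CPM in WT (1.55, SE 0.44). With Sfn these were the 3 genes of the list that DESeq2 called, all higher, where it called 0.993% of all genes higher and 0.643% lower. Their DESeq2 adjusted p were 0.0121 for Dyrk3 and 0.0401 for Ninj1. Dram1, a lysosomal protein of autophagy, had 23.0 and 16.3 CPM in KO and 4.60 and 8.28 CPM in WT (1.61, SE 0.49), and Plcd4, a phospholipase C, had 35 and 84 counts in KO and 3 and 2 counts in WT. KO replicate 2 was the highest of the 4 embryos for 26 of the 60 genes and KO replicate 1 for 13, beside 26.5% and 23% of all genes tested.

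Regulators that act on p53, from the damage kinases to ribosomal proteins that bind Mdm2, had 34 of 36 genes tested, with 0 called in either direction. Fold changes were below 0 for 23 of the 34, beside 8138 of all 15563 genes tested, with a median of -0.19 over the 34 regulators. The 5 with the smallest p were Ppp1r13l, the p53 inhibitor iASPP, at 9.11 and 7.28 CPM in KO and 4.42 and 3.85 CPM in WT, and Npm1, Rpl5, Daxx and Tpt1. Npm1, nucleophosmin, which binds Mdm2 when the nucleolus is disturbed, had 4176 and 3356 CPM in KO and 5643 and 4569 CPM in WT (-0.44, SE 0.25). Rpl5, the ribosomal protein that blocks Mdm2 when free, had 1936 and 1990 CPM in KO and 2344 and 2647 CPM in WT (-0.35, SE 0.24). Npm1, Rpl5 and Tpt1 have many processed pseudogenes, so their counts are uncertain. Daxx, a chaperone of histone H3.3 that also binds Mdm2, had 45.3 and 48.1 CPM in KO and 29.0 and 37.6 CPM in WT (0.49, SE 0.36). Tpt1, which promotes the breakdown of p53, had 1357 and 1309 CPM in KO and 1696 and 1580 CPM in WT (-0.30, SE 0.24). The regulators had a median below 0 while both target lists had medians above 0, and the difference between lists was not tested. Against the WT mean, the median of the regulators was -0.28 in KO replicate 2 and -0.01 in KO replicate 1. For the other p53 targets it was 0.32 in KO replicate 2 and 0.17 in KO replicate 1.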

How the data were processed

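The authors deposited whole-number read counts per gene without normalisation. TopHat, Cufflinks and mm10 are named without role or version, per the submitters' processing notes; the sources used here do not name the counter, its strand setting or the annotation. Smart-Seq libraries keep no strand information. Of 47885 rows, 46574 matched GENCODE M21, 816 carried no Ensembl identifier and 495 were not found. Coordinates and merged exon lengths came from that annotation on mm10.

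KO was compared with WT by the quasi-likelihood F test of edgeR 4.0.16 under R 4.3.3, with TMM scaling and robust dispersions, and p-values were adjusted over 15563 genes (threshold 0.05). These passed filterByExpr at a minimum count of 10 and a total of 15. SE is the absolute log2 fold change over the square root of F. Log2 CPM of single embryos used a prior count of 2. DESeq2 (1.42.0) ran on all genes with a count, with its own filtering, and limma (3.58.1) supplied voom. The scripts were tested on simulated data. With 2 separate embryos per group, p-values rest on the spread among 4 animals.

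The 30 genes were named for the pathway, and the members, lists and tests were chosen with earlier results of these data known. The named genes are all 30 and, from each of the other lists, the 5 with the smallest unadjusted p. The form of the p53 decamer search was set after the promoter windows were read.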

Additional observations from a re-analysis of the deposited data

How the results depend on the processing

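No gene was called in the main test, with limma-voom, RLE scaling, library totals or at least 50 counts in 2 libraries. DESeq2 gave 159 genes higher and 103 lower over all genes, with 1 of the 29 genes (Pmaip1), and no low-count filter gave 157 and 101, with 2 (Pmaip1, lower, and Phlda3, higher). Leaving out 1 embryo gave 14 to 133 higher, 1 to 209 lower and 0 to 4 of the 29 genes. The median over the 29 ran from 0.31 to 0.45 with 1 embryo left out, and the number of genes whose groups did not overlap from 19 to 24, where between 64.2% and 75.5% of all genes did not overlap; fewer embryos were then compared. Over the 11 alternatives, 27 of 319 fold changes of single genes turned sign, none of them past the threshold before or after. No label ties equal replicate numbers to a litter or day, so whether same-numbered embryos share one is not known. Deviations of same-numbered embryos correlated at 0.329 across genes. The replicate block gave 52 genes higher and 19 lower, with 0 of the 29 and a median of 0.34. The median was 0.35 with limma-voom. The depth limits Fas, which had at most 11 counts.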
